A study of Mus musculus with 6 samples.

Results

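The transcriptome described here is that of uninjured lumbar dorsal root ganglia, taken from the 3 control libraries among the 6 RNA-seq libraries of a study of burn injury and pain. The libraries were chosen by their label alone, and no burned animal enters any value below. The mice were wild-type C57BL/6 males of 6 to 8 weeks without a burn. Whole ganglia of levels L3, L4 and L5 were stored in RNALater, RNA was isolated with RNeasy Mini columns, and stranded total RNA libraries were read as single-end 75-nucleotide reads. The labels call the material both neurons and whole ganglia, and they do not say whether the 3 libraries came from separate animals, so every spread below is a spread between libraries that may be partly technical.

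A dorsal root ganglion holds the cell bodies of the sensory neurons that carry touch, temperature, pain and limb position to the spinal cord. Satellite glia wrap each cell body, Schwann cells ensheath the axons, and the capsule adds fibroblasts, vessels and resident macrophages. Small neurons that detect damaging stimuli fall into a peptidergic class, which makes calcitonin gene-related peptide and substance P, and a non-peptidergic class marked by the receptors Mrgprd, P2rx3 and Ret. Large myelinated neurons for touch and position carry heavy neurofilaments.

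The deposited counts held 35991111, 17273908 and 81968142 reads in genes in controls 1, 2 and 3. Levels are given in CPM, the reads of a gene scaled to the total of reads in genes of its library, so that 1 CPM stood for 35.99, 17.27 and 81.97 reads. Genes of different length are compared only as CPM per kb, the CPM divided by the length in kilobases of all annotated exons of the gene, with the mean ± SD over the 3 libraries. Spread is given as the coefficient of variation (CV), the SD as a percentage of the mean. What is called steady or nearly constant below is so with these plain totals. Of 38926 gene symbols, 12655 had no read in any control library and 20995 had a read in each. A mean of at least 1 CPM was reached by 15496 genes, of which 14174 were protein-coding, and the counts of genes below refer to these 15496. Of them 9.6% differed by more than 2-fold between the highest and the lowest library. That share was 20.1% at 1 to 10 CPM, 5.38% at 10 to 100 and 3.25% at 100 to 1000 CPM. The 9.6% is thus not matched for level, and lists with none over 2-fold are not shown to be unusually steady.

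The 3 libraries did not hold the same mixture of transcripts, which touches many of the results. Control 1 had the most skeletal muscle RNA, control 2 the most myelinating Schwann cell, collagen and small nuclear or nucleolar RNA, and control 3, the deepest, the most mitochondrial RNA and the least blood, immune and histone RNA. Pearson's r of log2 CPM across genes, which are not independent replicates, was 0.9835 between controls 1 and 2, 0.9737 between 1 and 3 and 0.9746 between 2 and 3. A chi-square statistic per degree of freedom, taken over all genes with a read, was 36.4 to 144 between pairs of libraries, beyond read-sampling noise. Genes with many reads can weigh heavily in it, and whether a library was sequenced again was not tested. That comparison does not tell whether libraries share RNA or an animal. In bulk ganglia, fewer cells of a type and less RNA per cell cannot be told apart.

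Protein-coding genes held 92.11% ± 0.24 of the reads (SD, n = 3), and reads were concentrated in few genes. The 10 genes with the highest mean CPM held 7.688% ± 0.469 of all reads, the first 100 held 20.44% ± 0.466 and the first 1000 held 48.73% ± 1.16. To reach 50% of the reads took 1070 genes in control 1, 1117 in control 2 and 977 in control 3.

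The list was led by noncoding RNA. The large mitochondrial ribosomal RNA mt-Rnr2 (chrM:1094-2675) stood at 21300, 12161 and 33357 CPM in controls 1, 2 and 3. Its level was highest in control 3 and lowest in control 2, and the 3 values spanned 2.74-fold. Rn7sk (chr9:78175303-78175633), the nuclear RNA that restrains transcription elongation, had 16779, 18657 and 12274 CPM. Rpph1 (chr14:50807449-50807767), the RNA subunit of ribonuclease P, had 5792, 12464 and 5458 CPM, with control 2 apart from the others. The nuclear long noncoding RNA Malat1 was steadier, with 5232, 4792 and 4465 CPM. Per kb, Rn7sk reached 48046 ± 9910 and Rpph1 24779 ± 12389 CPM, the largest of any structural RNA gene. Of the 75-base windows of Rn7sk 65.0% occurred in a transcript of another annotated gene, through its near-identical copies, and of those of Rpph1 64.9%, through the overlapping gene Ccnb1ip1, so the reads of both may be split or lost.

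**Figure D1:**
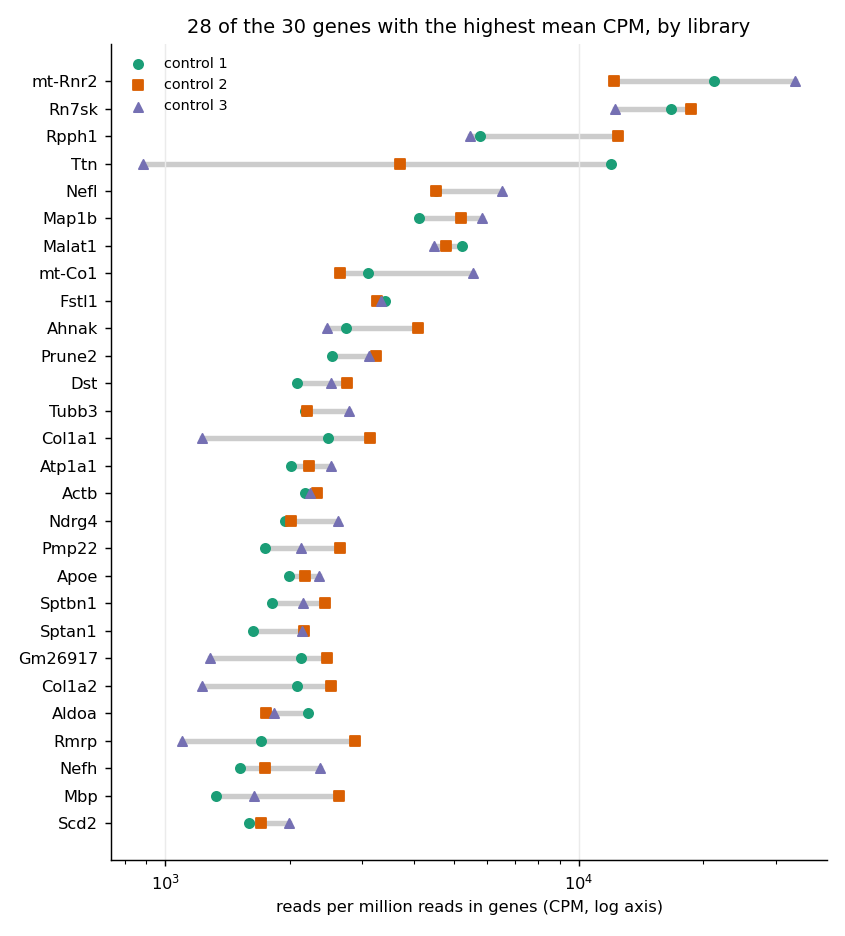
CPM in each control library of 28 of the 30 genes with the highest mean level, on a log axis; points are libraries and the grey bar joins the lowest and the highest. Fstl1 and Actb lie within a narrow range, whereas Ttn runs from 885 CPM in control 3 to 11997 CPM in control 1.

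Among protein-coding genes, cytoskeletal genes of the axon stood high. Nefl (chr14:68083863-68089095), the neurofilament light chain, had 4524, 4526 and 6530 CPM. Controls 1 and 2 were nearly level and control 3 was higher. Map1b, a microtubule-associated protein of growing and adult sensory axons, had 4110, 5209 and 5836 CPM. Tubb3, the neuronal beta-tubulin, had 2178, 2206 and 2785 CPM. Fstl1, a secreted glycoprotein, was both abundant and the steadiest of the 30 protein-coding genes with the highest CPM, at 3398, 3259 and 3331 CPM, a CV of 2.09%. Actb, cytoskeletal actin, had a CV of 3.33%, Uchl1, a deubiquitinating enzyme of neurons, 3.63%, and Prph, the peripherin of small neurons, 4.31%. Ttn, the giant titin of muscle, came first by mean CPM only through control 1, and its 11997, 3702 and 885 CPM spanned 13.6-fold.

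Length changed the order. Per kb, mt-Co1, a catalytic subunit of mitochondrial cytochrome oxidase, led the protein-coding genes at 2437 ± 1014 CPM. Hbb-bs, an adult beta-globin, followed at 1892 ± 813 CPM, Sncg, the synuclein of sensory neurons, at 1578 ± 81.5 CPM and Nefl at 1537 ± 343 CPM. The range of Nefl over the libraries overlapped those of the other 3, so its place among them is not resolved beyond the spread. Tubb3 had 1279 ± 184, Uchl1 1054 ± 38.3, Apoe, the lipid carrier made by satellite glia, 1017 ± 85.9, S100a9, a neutrophil granule protein, 976 ± 446 and Pmp22, a structural protein of peripheral myelin, 925 ± 192 CPM per kb. Genes of neurons, of glia, of blood and of mitochondria thus all stood among the highest. Ttn, divided by its 116825 exonic bases, stood at 47.3 ± 49.4 CPM per kb.

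Neurofilament, tubulin and stathmin genes together took 2.62% of the reads, with summed levels of 23344, 25005 and 30336 CPM over 27 genes. Of the 27, 12 had a CV under 10%, which 35.9% of all genes had. With plain totals Stmn3, a neuronal stathmin that binds tubulin, was nearly constant at 682, 684 and 680 CPM. Its CV of 0.293% lies under the median of 1.41% that counting error gives at 100 to 1000 CPM, so such closeness carries little weight. Tubb5 had a CV of 3.13% and Tubb2a of 3.84%. The neurofilament genes spread more, with Nefh at 1516, 1740 and 2374 CPM and Nefm at 1024, 966 and 1878 CPM, each highest in control 3. Per kb, Nefl stood 3.28 ± 0.227 times above Nefh and 7.17 ± 1.09 times above Nefm. The annotated span of Nefm encloses Nefl, and 31.3% of the 75-base windows of Nefl lie in a transcript of another gene, so the division of reads between these neighbours is uncertain.

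The pan-neuronal markers were all present, with 14 of 14 above 1 CPM and summed levels of 7957, 7811 and 9450 CPM. None of the 14 differed by more than 2-fold between the highest and the lowest library, which 9.6% of all genes did. Among genes of 10 to 100 CPM 5.38% did, and of 100 to 1000 CPM 3.25%. Rbfox3, the nuclear antigen NeuN, had 67.6, 65.0 and 89.7 CPM, and Snap25, a protein of vesicle fusion, 799, 644 and 1219 CPM. Of the 27 genes for synaptic vesicles and release, none differed by more than 2-fold either, and Sncg led them per kb, followed by Cplx1 at 181 and Syt11 at 180 CPM.

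Peptidergic nociceptor genes were the steadiest of the neuron lists. Their 10 genes summed to 2372, 2237 and 2238 CPM, with a median CV of 5.08% beside 13% over all genes. None exceeded 2-fold, beside 9.6% of all genes. Calca (chr7:114631478-114636357), which encodes calcitonin and the alpha form of calcitonin gene-related peptide, had 1459, 1359 and 1319 CPM. Its neighbour Calcb (chr7:114718643-114723365), which encodes the beta form, had 146, 119 and 122 CPM. Per kb, Calca stood 7.5, 8.60 and 8.14 times above Calcb, a mean of 8.08 ± 0.55. Tac1, the precursor of substance P, had 222, 181 and 219 CPM, and Adcyap1, the PACAP precursor, 67.0, 62.1 and 67.5 CPM. Gal, the galanin gene that injured neurons switch on, was low at 6.45, 4.80 and 6.82 CPM.

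The 17 non-peptidergic genes summed to 2792, 2623 and 3007 CPM, and none of them exceeded 2-fold, beside 9.6% of all genes. Mrgprd, a receptor of skin nociceptors, had 186, 183 and 223 CPM. P2rx3, the ATP-gated channel subunit, had 151, 162 and 139 CPM. Ret, the signalling receptor for glial cell line-derived factors, had 513, 576 and 628 CPM, and Plxnc1, a semaphorin receptor, was steadiest at 391, 373 and 369 CPM. Itch-associated genes were detected at lower levels, with Nppb at 12.1, 13.4 and 10.3 CPM and Mrgpra3 at 6.53, 7.29 and 9.64 CPM. Low-threshold C fibre genes were present as well, with Th, tyrosine hydroxylase, at 82.5, 76.2 and 85.5 CPM. Trpm8, the cold receptor, had 34.6, 45.0 and 32.0 CPM.

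The large-neuron list, with summed levels of 8352, 8298 and 11856 CPM, held 2 of 14 genes over 2-fold, beside 9.6% of all genes. One was Calb1, the calcium-binding protein calbindin, at 36.5, 24.5 and 52.6 CPM, highest in control 3. The other, Pvalb, encodes parvalbumin, a marker of position-sensing neurons that is also made by fast muscle fibres. It had 472, 202 and 98.3 CPM, the order of the muscle genes and not that of the neurofilaments. Other members of neuronal or vessel lists that are also muscle genes ran the same way, and they are named here after their values were seen. Scn4a, the skeletal muscle sodium channel, had 44.1, 21.7 and 12.1 CPM. Cacna1s, the voltage sensor of skeletal muscle, had 101, 36.0 and 8.71 CPM, and Des, muscle desmin, 191, 76.9 and 14.9 CPM. The part of muscle RNA in these values was not tested. Ntrk3, the neurotrophin-3 receptor of large neurons, did not run that way, at 58.0, 85.6 and 70.9 CPM.

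Receptors for neurotrophic factors gave a graded picture of the neurons sampled. All 16 were above 1 CPM and none exceeded 2-fold, beside 9.6% of all genes. Per kb, Ngfr, the low-affinity neurotrophin receptor that glia also make, led at 132 CPM, while Lifr, a cytokine receptor subunit, had 87.3 and Ret 84.7 CPM. Ntrk2, the receptor for brain-derived neurotrophic factor, had 11.2 and Ntrk3 2.37 CPM per kb of annotated exon. The 3 co-receptors Gfra1, Gfra2 and Gfra3, which set the ligand of Ret, had 30.5, 25.2 and 20.7 CPM per kb, in that order in every library, with ratios of 0.826 ± 0.0439 for Gfra2 to Gfra1 and 0.826 ± 0.0458 for Gfra3 to Gfra2.

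Sodium channels, which start and carry the action potential, took 0.364% of the reads, with 3432, 3351 and 4126 CPM summed over 14 genes. Scn10a (chr9:119608456-119719322), the tetrodotoxin-resistant channel Nav1.8 of nociceptors, had 781, 873 and 865 CPM, a CV of 6.10%. Its neighbour Scn11a (chr9:119753759-119825456), Nav1.9, had 487, 474 and 574 CPM. Scn9a (chr2:66480080-66634962), Nav1.7, had 530, 465 and 682 CPM. Per kb the pore-forming genes ran Scn10a at 105 ± 6.43, Scn11a at 86.3 ± 9.13, Scn7a at 77.7, Scn9a at 43.8 ± 8.72, Scn1a at 18.3 and Scn8a at 12.2 CPM. Scn10a stood above Scn9a in every library, 2.47 ± 0.498 times. Scn7a, a channel relative found in glia as well as neurons, cannot be placed against Scn11a beyond its spread. Scn3a, the embryonic channel Nav1.3, was at the bottom with 8.11, 7.53 and 9.02 CPM, or 0.660 CPM per kb. Of the auxiliary subunits, Scn4b had 68.8, Scn2b 15.4 and Scn3b 15.3 CPM per kb.

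**Figure D2:**
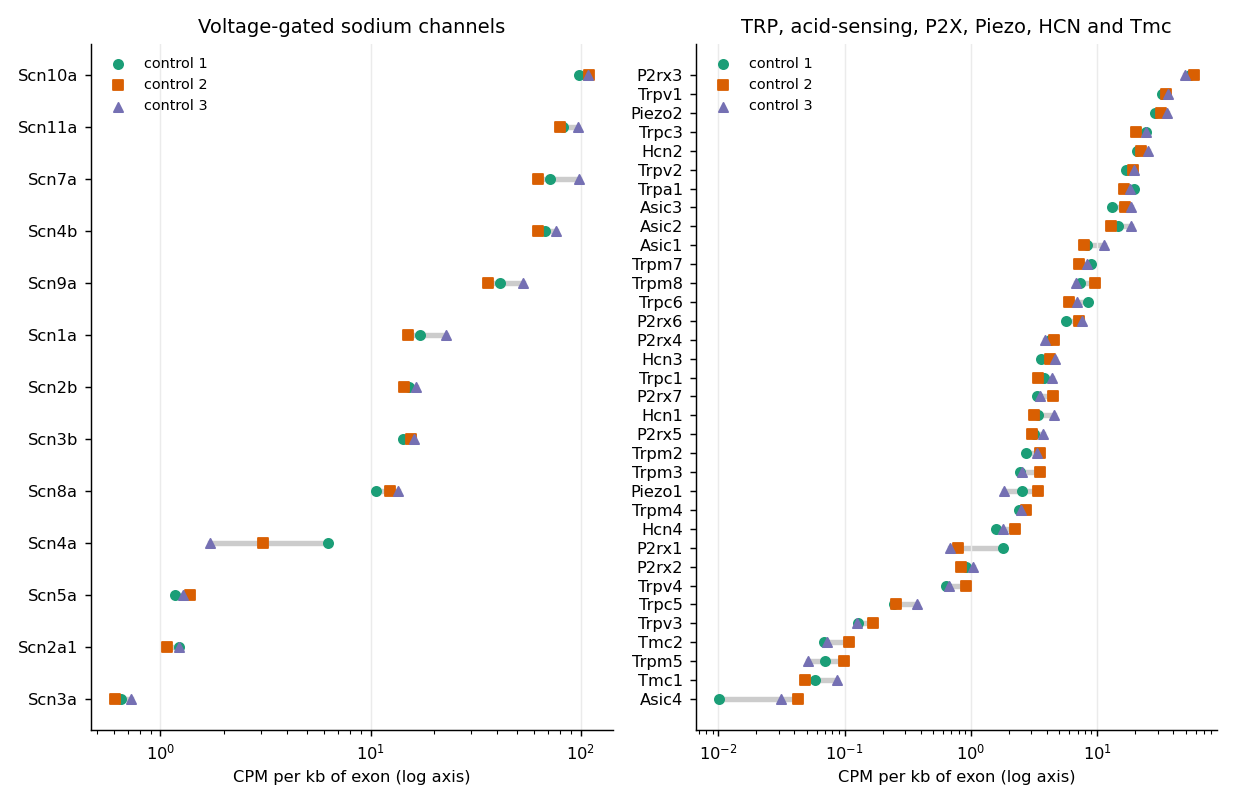
CPM per kb of exon of 13 of the 14 sodium channel genes (left) and of TRP, acid-sensing, P2X, Piezo, HCN and Tmc channel genes (right) with a read in each control library, on log axes, sorted by mean; points are libraries. Scn4a and P2rx1 are the genes above 1 CPM shown here that differ by more than 2-fold, and in both control 1 is highest and control 3 lowest.

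Among the 34 channels that transduce stimuli, 29 reached 1 CPM, and of these P2rx1 alone differed by more than 2-fold, at 4.67, 2.08 and 1.81 CPM. P2rx3 led per kb at 54.1 CPM, then Trpv1, the heat and capsaicin receptor, at 34.7 ± 1.71 CPM and Piezo2, the touch channel, at 32.1 CPM. Trpv1 itself had 121, 129 and 133 CPM, a CV of 4.92%. Piezo2 had 488, 547 and 616 CPM. Paired family members were far apart, since P2rx3 stood 59.2 ± 10.9 times above P2rx2, and Piezo2 13.4 ± 5.42 times above Piezo1, the stretch channel of vessels and other tissue. Trpv1 stood 1.93 ± 0.25 times above Trpa1, the irritant receptor, and 4.51 ± 0.837 times above Trpm8.

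Of the potassium channels 0 of 32 genes exceeded 2-fold, beside 9.6% of all genes and 5.38% of those at 10 to 100 CPM. Their median CV of 11.6% equals that of all genes at 10 to 100 CPM. Kcna1, a channel beside the nodes of myelinated axons, led per kb at 97 CPM and had 379, 452 and 560 CPM. Kcna1 stood 9.70 ± 0.622 times above Kcna2. Kcnc4 was nearly constant at 30.8, 31.6 and 31.0 CPM, but its CV of 1.36% lies under the median of 3.23% that counting error gives at 10 to 100 CPM. Of the 32, 23 were highest in control 3, which 25.9% of all genes were, and 31 when libraries were scaled by TMM, an edgeR scaling that sets the bulk of genes level, against 42.3% of all genes. Of the 18 calcium channel genes, 16 reached 1 CPM and summed to 1205, 1144 and 1186 CPM. Cacnb3, an auxiliary beta subunit, led per kb at 59.6 CPM, Cacna2d1, the target of gabapentin, had 311, 211 and 283 CPM, and Cacna1b, the N-type pore, 113, 136 and 119 CPM.

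Inhibitory and modulatory receptors were present at moderate levels. Gabbr1, a GABA-B subunit, had 426, 438 and 497 CPM and led the 38 transmitter receptors per kb at 58.5 CPM. Grik1, the kainate receptor of small neurons, had 260, 236 and 269 CPM. Oprm1, the mu opioid receptor, had 27.6, 31.4 and 31.4 CPM, the nociceptin receptor Oprl1 25.7, 26.7 and 27.3 CPM, and the delta receptor Oprd1 18.3, 17.9 and 19.9 CPM. Oprk1, the kappa receptor, was lower at 3.58, 2.37 and 3.33 CPM. Per kb, Oprl1 stood 1.89 ± 0.0913 and Oprd1 1.25 ± 0.0965 times above Oprm1, and Oprm1 11.5 ± 3.21 times above Oprk1. The vesicular glutamate transporter Slc17a6 had 247, 204 and 288 CPM and stood 2.96 ± 0.423 times above Slc17a7 per kb.

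Of 28 neuropeptide genes 15 reached 1 CPM, and the sum over all was 2624, 2483 and 2571 CPM, a CV of 2.78%. Calca made up most of it. Per kb, Scg2, a granin of dense-core vesicles, had 155, Nmb, neuromedin B, 133, Calcb 102 and Tac1 61.0 CPM. Nmb itself had 118, 108 and 92.3 CPM. Npy, another peptide of injured neurons, had 6, 4 and 20 reads, or 0.167, 0.232 and 0.244 CPM. Penk, proenkephalin, was the only peptide gene above 1 CPM to exceed 2-fold, at 12.3, 20 and 7.93 CPM.

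Genes known for their induction after nerve injury ranged widely in level. Of 19 such genes 13 reached 1 CPM, and 0 of the 13 exceeded 2-fold beside 9.6% of all genes. Their median CV of 12% was close to the 13% over all genes. Cacna2d1 had the highest CPM of the list, a mean of 268. Gap43, a growth cone protein that adult ganglia also make, followed at 119, 111 and 141 CPM and was the highest per kb at 81.4 CPM. Jun, an injury-responsive transcription factor that is also an immediate-early gene, had 63.3, 73.6 and 70.7 CPM. Atf3, a stress-induced transcription factor, was lower at 7.11, 7 and 6.99 CPM, and its CV of 0.951% lies under the 6.81% that counting error gives. Sprr1a, a growth-promoting protein, had 2, 1 and 19 reads. Several genes of this list had been picked from earlier results of these libraries. The immediate-early gene Fos had 11.7, 16.8 and 15.6 CPM and Egr1 10.8, 14.1 and 13.6 CPM.

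Transcription factors of sensory neuron identity were present in adult ganglia, with 23 of 26 above 1 CPM. None of these exceeded 2-fold, beside 9.6% of all genes. Isl2 and Isl1, which specify sensory neurons, had 69.0 and 20.3 CPM per kb, a ratio of 3.41 ± 0.193. Pou4f1, or Brn3a, had 116, 94.7 and 114 CPM. Tlx3 was nearly constant at 36.3, 35.5 and 36.4 CPM, but its CV of 1.35% lies under the median of 3.23% that counting error gives at 10 to 100 CPM. Prdm12, required for nociceptors, had 51.5, 61.2 and 63.2 CPM. Runx1, of nociceptors, stood 10.1 ± 0.778 times above Runx3, of position-sensing neurons.

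Housekeeping families had median CVs on both sides of the 13% over all genes, with 20.2% for cytosolic ribosomal protein genes and 16.7% for calcium-binding proteins. The 16 genes of glycolysis summed to 6461, 5992 and 6169 CPM, with a median CV of 9.10% beside 13% over all genes, and Pkm, pyruvate kinase, had 965, 1001 and 1060 CPM. Aldoa, which fast muscle also makes in quantity, was highest in control 1 at 2214, 1750 and 1835 CPM. Gapdh (chr6:125161715-125166467), a glycolytic enzyme often used as a reference gene, stood at only 4, 3.36 and 1.89 CPM, and was the only gene of the list over 2-fold. It shared 75-base windows with 121 other annotated genes, over 22.6% of its windows, while Aldoa shared 0.672% and Pgk1, at 18.1, 15.9 and 15.2 CPM, shared 52.8%. Whether reads of Gapdh and Pgk1 were set aside as non-unique was not tested, and their levels are uncertain. Chaperone genes summed to 4500, 4412 and 5292 CPM with 0 of 15 over 2-fold, beside 9.6% of all genes, and a median CV of 13.2%. Among them Hspb8, a small heat shock protein, was nearly constant at 347, 344 and 339 CPM. The 14 genes for iron, redox and metal handling summed to 2813, 2867 and 2560 CPM with a median CV of 12.3%. None was over 2-fold, beside the same 9.6%. Fth1, the ferritin heavy chain, led them in CPM at 698, 789 and 649. Calcium-binding proteins summed to 7893, 6849 and 8346 CPM, of which S100a6 had 481 and S100b, of glia, 435 CPM per kb. Protocadherins, adhesion proteins of neurons, summed to 809, 905 and 980 CPM with 34 of 36 above 1 CPM.

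Hox genes, whose combination marks the level of the body axis, gave a profile that ended sharply. Of the 38 in the files, 28 reached 1 CPM, and the sum was 253, 266 and 262 CPM, a CV of 2.43%. Summed per kb by paralog group, the level was 11.7 ± 1.92 in group 6, 13 ± 1.65 in group 7, 13.6 ± 1.26 in group 8, 18.1 ± 0.778 in group 9 and 13.6 ± 1.49 in group 10. It was 1.55 ± 0.72 in group 11, 0.0259 ± 0.027 in group 12 and 0.0563 ± 0.0422 in group 13. The sums run over 2 genes in group 7, 4 in group 9 and 3 in each of groups 6, 8, 10 and 11. The highest sum, in group 9, is therefore not the highest level per gene. The ranges of groups 6 to 8 and 10 over the libraries overlapped. Within libraries group 10 stood above group 6 each time, at 14.2, 14.7 and 11.9 beside 10.1, 13.8 and 11.3. Every library had group 11 below each of groups 3 to 10. The step lay between neighbours on the chromosome, and by the mean ratio it was steepest from Hoxa10 to Hoxa11. Per kb, Hoxa10 stood 17 ± 9.1 times above the adjacent Hoxa11. The ratio was 8.25 ± 2.83 for Hoxc10 to Hoxc11 and 4.67 ± 0.796 for Hoxd10 to Hoxd11. Hoxa10 had 27.2, 27.4 and 26.6 CPM and Hoxa11 1.08, 2.49 and 0.720 CPM. Of the windows of Hoxa11 32% occurred in another annotated gene, so its reads may be split or lost. Hoxd1, a group 1 gene of nociceptors, stood at 13.2, 12.0 and 14.9 CPM and made up most of its group. Hoxb1 and Hoxd12 had no read in any library, which allows at most 0.0222 CPM over the pooled libraries, a limit of 3 reads that covers counting error only.

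**Figure D3:**
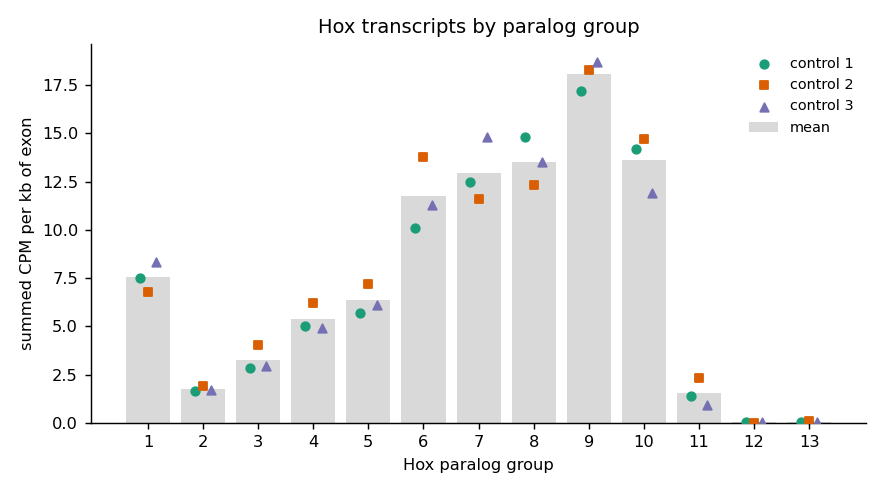
Summed CPM per kb of exon of the Hox genes of each paralog group; bars are the mean of the 3 control libraries and points are the libraries. The sum is highest in group 9, at 18.1 over 4 genes, and is 1.55 over 3 genes in group 11. Groups hold unequal numbers of genes, so bars are not levels per gene.

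Satellite glia markers summed to 4519, 4928 and 4999 CPM over 11 genes. None of the 11 exceeded 2-fold, beside 9.6% of all genes and 3.25% of those at 100 to 1000 CPM. Their median CV of 16.9% was above the 13% over all genes. The sum was thus steadier than its members. Apoe had 1988, 2178 and 2356 CPM and Fabp7, a lipid-binding protein of these glia, 282, 243 and 340 CPM. Myelinating Schwann cell genes spread more. Mbp, myelin basic protein, had 1327, 2634 and 1638 CPM, and Pmp22 1748, 2648 and 2134 CPM. The 15 genes of this list summed to 6345, 11509 and 8017 CPM. Of the 15, 12 were highest in control 2, which 47.6% of all genes were (31.6% with TMM, where the count was also 12), and 14 were lowest in control 1, which 26.6% of all genes were (27.3% and 14 with TMM). Prx, periaxin of the myelin sheath, had 393, 881 and 560 CPM, and Drp2, its partner, 312, 634 and 314 CPM. Genes listed for non-myelinating Schwann cells ran another way, with 1928, 2070 and 2497 CPM summed over 7 genes. Of the 7, 5 were highest in control 3, which 25.9% of all genes were, and 6 with TMM, beside 42.3%. Gfap, a glial filament protein, was the only one of them over 2-fold, at 10.4, 15.3 and 4.99 CPM, and was highest in control 2. The list does not isolate these cells, since neurons also make its members Ngfr and Scn7a. Of the 14 pan-neuronal genes, 10 were highest in control 3 too (13 with TMM). The part of neurons in the list was not tested.

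Skeletal muscle genes had the widest spread of the lists. Their 14 genes summed to 26195, 8464 and 1700 CPM, a 15.4-fold range. All 14 exceeded 2-fold, all were highest in control 1 (26.5% of all genes were, 26.1% with TMM) and all lowest in control 3 (47.3% of all genes were, 33.2% with TMM). Acta1, skeletal actin, had 2263, 785 and 136 CPM and Myh4, a fast myosin heavy chain, 3385, 1232 and 184 CPM. Muscle adjoins the vertebral column but is not part of the ganglion, and how its RNA came into the libraries was not tested.

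**Figure D4:**
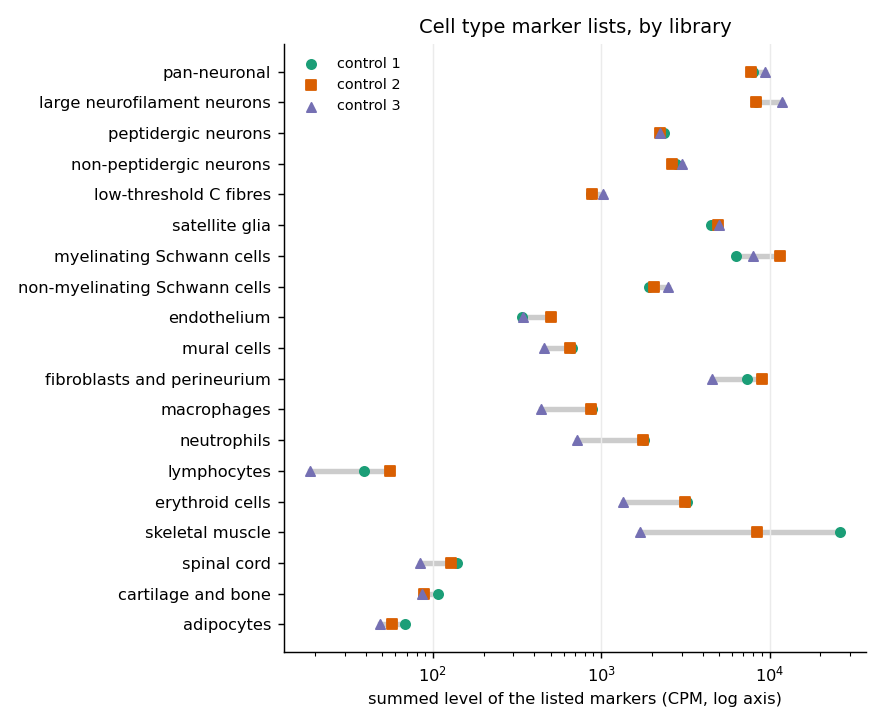
Summed CPM of each list of cell type markers in the control libraries, on a log axis; points are libraries and the grey bar joins the lowest and the highest. The neuron and satellite glia lists shown span 1.06-fold to 1.43-fold. The sums of cartilage and bone at 1.25-fold, non-myelinating Schwann cells at 1.3-fold and adipocytes at 1.41-fold lie in the same range. Sums can hide spread of the members: 7 of the 10 cartilage and bone genes above 1 CPM exceed 2-fold, beside 9.6% of all genes. Skeletal muscle spans 15.4-fold, and control 3 is lowest for macrophages, neutrophils and erythroid cells.

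Each list of blood and immune genes had its lowest sum in control 3, while the sums of neutrophil, erythroid and macrophage genes were close in controls 1 and 2. Among all genes 47.3% were lowest in control 3 (33.2% with TMM) and 9.6% exceeded 2-fold. Neutrophil genes summed to 1799, 1776 and 721 CPM, and 10 of 10 exceeded 2-fold and were lowest in control 3. S100a9 had 612, 674 and 243 CPM and Ltf, lactoferrin, 275, 314 and 115 CPM. Erythroid genes summed to 3221, 3158 and 1352 CPM, with 8 of 8 lowest in control 3, and among them Hbb-bs had 1896, 1724 and 738 CPM. Macrophage genes summed to 876, 865 and 438 CPM with 14 of 14 lowest in control 3. Lyz2, lysozyme, had 450, 433 and 187 CPM, and the receptor Csf1r 78, 83.4 and 48.5 CPM. Lymphocyte genes were sparse, at 39.0, 55.5 and 18.6 CPM summed over 10 genes, with controls 1 and 2 further apart, and Cd79b, Cd79a, Ms4a1 and Cd4 were among those that reached 1 CPM. With TMM the counts lowest in control 3 were also 10 of 10 neutrophil, 8 of 8 erythroid and 14 of 14 macrophage genes.

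Replication-dependent histone genes, whose messages lack a poly(A) tail, were also lowest in control 3. They summed to 1934, 2015 and 962 CPM. Of the 56 above 1 CPM, 37 exceeded 2-fold, beside 9.6% of all genes, and 54 were lowest in control 3 (53 with TMM), beside 47.3% of all genes (33.2% with TMM). The list had a median of 44% of windows shared with other annotated genes, so the level of a single member is uncertain. Hist1h1c, a linker histone, had 228, 275 and 139 CPM. Whether blood or marrow cells carried the histone RNA was not tested.

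Connective tissue genes were highest in control 2. Collagen genes summed to 8514, 11533 and 5512 CPM, and 35 of 39 were highest in control 2 under either scaling, beside 47.6% of all genes (31.6% with TMM). Col1a1, of fibrillar collagen, had 2483, 3138 and 1230 CPM. Col4a1, of basement membranes, had 332, 583 and 302 CPM. Endothelial genes, at 340, 503 and 343 CPM, were highest in control 2 for 11 of 12 (10 with TMM), for example Cdh5, the junction cadherin, at 46.8, 75.3 and 37.1 CPM. Markers of other neighbouring tissues had lower sums. Spinal cord genes summed to 140, 128 and 84.2 CPM over 12 genes, of which 8 reached 1 CPM. Most of the sum came from Gja1, a gap junction gene of astrocytes and other cells, at 51.4, 42.9 and 38.0 CPM, Mobp, a myelin protein of oligodendrocytes, at 45.7, 56.0 and 19 CPM, and Aqp4, a water channel, at 28.9, 18.4 and 19.8 CPM. Olig2, an oligodendrocyte factor, and Chat, of motor neurons, stayed under 1 CPM in each library. Cartilage and bone genes summed to 108, 88.2 and 86.3 CPM, and adipocyte genes to 68.1, 57.5 and 48.4 CPM. Of the 10 cartilage and bone genes above 1 CPM, 7 exceeded 2-fold, beside 9.6% of all genes and 20.1% of those at 1 to 10 CPM. Their median CV was 47.8%, so the sum was steadier than its members.

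Small noncoding RNAs were highest in control 2. Small nucleolar and Cajal body RNA genes, which guide the modification of other RNAs, summed to 905, 1769 and 720 CPM, with 16 of 16 highest in control 2 (15 with TMM), beside the 47.6% and 31.6% of all genes. Scarna10 had 385, 880 and 262 CPM. The structural RNA genes summed to 24331, 34124 and 18874 CPM, with 10 of 10 highest in control 2 (8 with TMM). Control 2 also had the fewest reads and the largest share of non-unique alignments, 38.7% of all tallied entries beside 34.7% in each of the others, and the part of these in the small RNA levels was not tested.

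Mitochondrial transcripts were highest in control 3. They summed to 26831, 17123 and 44098 CPM, most of it mt-Rnr2, and the 9 genes above 1 CPM were each highest in control 3 under either scaling. mt-Nd1, a subunit of complex I, had 572, 422 and 1200 CPM and mt-Cytb, of complex III, 424, 495 and 1148 CPM. Nuclear genes of oxidative phosphorylation were not highest in control 3, at 11973, 10956 and 10326 CPM summed, and Atp5b, an ATP synthase subunit, had 1340, 1249 and 1266 CPM. Of the 81 above 1 CPM, 9 were highest in control 3 (14 with TMM), beside 25.9% of all genes (42.3% with TMM). Lowest in control 3 were 52, beside 47.3% of all genes. With TMM that count was 32, and 45 were lowest in control 2, beside 33.2% and 39.5% of all genes. Over 2-fold were 5 of the 81, beside 9.6% of all genes. The part of muscle RNA in the sum was not tested.

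Within the mitochondrial messenger RNAs the counts were uneven. mt-Co1 had 111137, 45799 and 455494 reads, while mt-Co2, mt-Co3, mt-Atp6, mt-Atp8 and mt-Nd4l had 0 in each library and mt-Nd3 had 0, 0 and 10. The nuclear genome carries copies, and from GENCODE M21 transcripts (GRCm38) the share of 75-base windows, the read length, that occur in another annotated gene was 99.5% for mt-Co2, 99.9% for mt-Co3, 99.5% for mt-Atp6, 98.7% for mt-Nd4l and 97.8% for mt-Nd3. It was 61.5% for mt-Nd4, 39.8% for mt-Co1, 5.71% for mt-Nd2 and 0 for mt-Nd1, mt-Cytb and mt-Nd6. The copies of mt-Co2, mt-Co3, mt-Atp6, mt-Nd4l, mt-Nd3 and mt-Nd4 lie side by side on chromosome 1. The copy of mt-Co2 is the pseudogene Gm28661 (chr1:24614885-24615565), which matched over 681 bases with 0 differences. The copy of mt-Nd3, Gm28438 (chr1:24612775-24613119), had 1 difference in 345 bases. The copy of mt-Co1 on chromosome 2, Gm13340 (chr2:22588103-22589647), had 37 in 1545. A stretch of 60 bases of each pair, on the strand of the messenger RNA, is printed to set genes with and without reads beside their copies, with differing bases in capitals.
mt-Co2: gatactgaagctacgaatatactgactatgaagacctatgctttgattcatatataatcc
Gm28661: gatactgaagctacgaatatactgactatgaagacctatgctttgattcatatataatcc
mt-Nd3: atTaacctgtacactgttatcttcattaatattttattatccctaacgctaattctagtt
Gm28438: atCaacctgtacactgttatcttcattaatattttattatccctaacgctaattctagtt
mt-Co1: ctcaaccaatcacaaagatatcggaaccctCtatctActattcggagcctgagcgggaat
Gm13340: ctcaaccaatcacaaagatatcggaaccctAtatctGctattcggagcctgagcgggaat

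The pair of mt-Co2 and Gm28661 is letter for letter the same, that of mt-Nd3 differs near its start, and that of mt-Co1 differs at scattered bases. The genes with 0 or 10 reads were those with over 97% of windows shared, apart from mt-Atp8, which shared no window with an annotated transcript and overlaps the start of mt-Atp6 (chrM:7766-7969 and chrM:7927-8607). Non-unique alignments, left out of the gene counts, were 34.7% to 38.7% of tallied entries, and whether they held the reads of these genes was not tested. The 0 counts cannot be read as absence of these messages. Cytosolic ribosomal protein genes, a family with many processed copies, had a median of 18.3% of windows shared over 83 genes. The 24 of them under 10 CPM had a median of 22.8% and the 14 at 100 CPM or more 8.89%, so their levels are uncertain. The whole list of 88 ribosomal protein symbols, which also holds symbols not annotated as protein-coding, summed to 5774, 5867 and 4229 CPM. Of its 76 genes above 1 CPM, 69 were lowest in control 3 (57 with TMM), beside 47.3% of all genes (33.2% with TMM).

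Over all genes the median CV was 13%, with quartiles of 7.86% and 21.7%, beside a median of 3.73% that counting error alone would give. Reads carry no molecular identifiers, so this figure covers counting error only. By level, the median was 19.7% at 1 to 10 CPM, 11.6% at 10 to 100, 10.1% at 100 to 1000 and 16.4% for the 81 genes at 1000 CPM or more. The most abundant genes were thus less steady than those of middle level, with 13 of the 81 over 2-fold. In all, 1488 genes exceeded 2-fold, and 5570 had a CV under 10%. Of the 1488, 554 were highest in control 1, 831 in control 2 and 103 in control 3, and 1271 were lowest in control 3. The common biological coefficient of variation, edgeR's estimate of spread beyond counting, was 0.220 over 16810 genes.

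**Figure D5:**
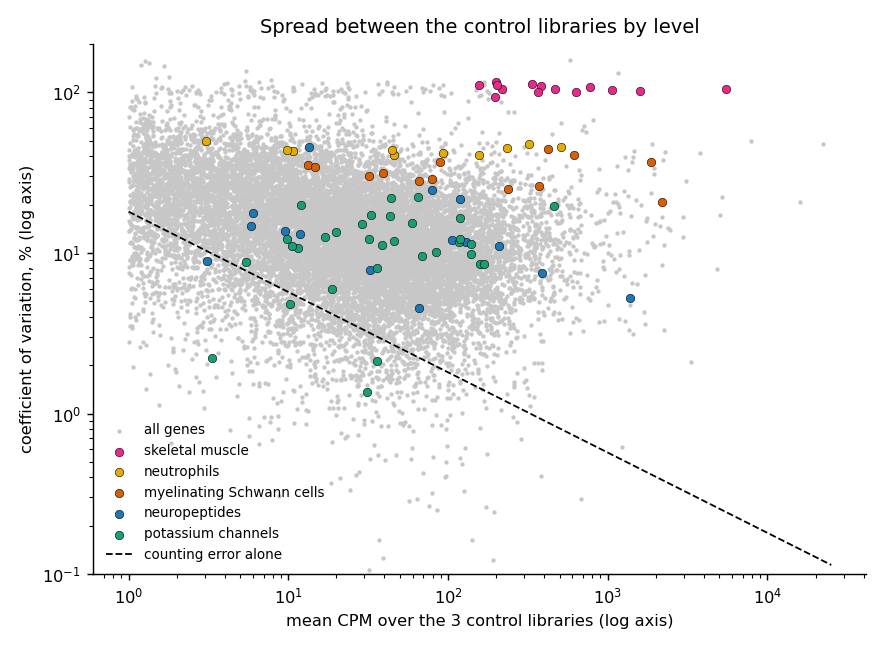
Coefficient of variation over the 3 control libraries against mean CPM for the 15496 genes at 1 CPM or more (grey) with 5 gene lists in colour, both axes logarithmic; the dashed line is the variation that counting error alone gives. Skeletal muscle genes lie at 92.9% to 116%, neutrophil genes at 40.5% to 49.8% and potassium channel genes at 1.36% to 22.4%.

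The ends of the range differed in kind. Among genes with a mean of at least 20 CPM the steadiest was Rdh14, a retinol dehydrogenase, at 32.1, 32.2 and 32.2 CPM, followed by Ostf1 at 192, 193 and 193 CPM. Their CVs of 0.107% and 0.122% lie under the 3.19% and 1.30% of counting error, so their rank among steady genes carries no weight. The least steady was n-R5-8s1, an annotated 5.8S ribosomal RNA, at 1649, 40.0 and 58.2 CPM, then AY036118 (chr17:39847113-39848035), an annotated long noncoding RNA, at 223, 316 and 2919 CPM. The other 8 of the 10 least steady, among them Mylpf, Myh2, Xirp2 and Trdn, are muscle genes, and all 8 were highest in control 1 and lowest in control 3.

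Each library had genes of its own far from the others. In control 2 H2afz, a histone variant, stood at 1.85 CPM beside 12.5 and 10.6, and Ppbp, a platelet chemokine, at 8.28 beside 44.9 and 22.4 CPM. In control 3 mt-Nd6, the single message of the light mitochondrial strand, stood at 31.8 CPM beside 7.75 and 3.82. In control 1 the predicted gene Gm10800 stood at 29.8 CPM beside 208 and 405. The cause of these values was not tested.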

How the data were processed

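Stranded total RNA of whole lumbar ganglia was measured in 3 control libraries. The authors deposited raw counts of reads per gene symbol, 1 file per library. STAR, HTSeq and SAMtools, as well as mm10 and GRCm38, appear per the submitters' processing notes, with neither roles nor versions. Neither the strand setting of the counting nor the annotation release is given in the sources used here. The 5 tally lines that name no gene, 49.4%, 51.8% and 50.2% of entries in controls 1, 2 and 3, were left out of all totals. CPM used plain totals. With TMM, the scaling factors were 1.0011, 1.0607 and 0.94176.

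The members, the 51 gene lists and the genes to name were chosen with earlier results of these data known. Named are genes high in CPM or per kb, up to 4 leading members of each list and its members without a read, a fixed set of nociceptor, glial and injury genes, and the genes of lowest and highest CV or furthest off in 1 library. Other list members are given as examples. List genes that are not in the files were not analysed here, and some items are not reported, though list sums include them.

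Exon lengths and coordinates came from GENCODE mouse release 21 on GRCm38, where 35719 symbols were found directly and 1731 through a RefSeq synonym, and 99.56% of reads lay in genes with a length. Window sharing used exact matches of 75 bases on either strand. Dispersion was estimated with edgeR 4.0.16 in R 4.3.3 on genes passing filterByExpr, and was tested on simulated data. Other values used Python 3.11.15, pandas 2.3.3 and numpy 2.4.6, and figures matplotlib 3.10.9. No group was compared with another, so no test was made. Alternatives were TMM scaling, removal of dominant RNAs, thinning, other level limits, another gene length and leaving out each library.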

Additional observations from a re-analysis of the deposited data

How the results depend on the processing

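With 3 libraries the spread itself is poorly known. Leaving out 1 library put the median CV between 9.17% and 13.3%, the share of genes over 2-fold between 2.72% and 7.61%, and the biological coefficient of variation between 0.168 and 0.244. The median CV was lowest without control 2, the other 2 values without control 3. The highest-over-lowest ratio of a gene cannot rise when a library is left out. Shares over 2-fold below the 9.6% of all 3 libraries are therefore no measure of how well the spread is known. The skeletal muscle share of reads, 1.21%, was 0.508% without control 1. Without mitochondrial, globin, structural and muscle RNA in the total, the first 10 genes held 3.71% of reads and the first 100 held 16.1%. This change of total also moved 103 of 715 named gene levels and 12 of 44 list shares by more than their SD. The median CV was 11.9% at a mean of at least 5 CPM and 23.4% over every gene with a read. The share over 2-fold was 23.9% over genes with a read in each library, and 26.4% of genes exceeded 1.5-fold. A filter minimum of 50 reads gave a biological coefficient of variation of 0.204. With the longest transcript as length, Calca stood 10.4 times above Calcb. TMM scaling moved the mean of 1 of 760 named gene levels by more than its SD, thinning 25, and the longest transcript 321 of 760 levels per kb, so orders per kb depend on the gene model. The spread of a gene depends on the scaling too, since the TMM factors ran from 0.94176 to 1.0607. Genes nearly constant with plain totals, such as Stmn3, Fstl1, Kcnc4, Tlx3 and Hspb8, are spread more under TMM. Under TMM the library in which most genes were highest changed from control 2 (47.6%) to control 3 (42.3%).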
